A study of Mus musculus with 6 samples.

Results

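The mitosis genes considered here are 38 genes that act between the G2 phase and the separation of daughter cells. They were chosen as a list, by name, and a probe set (a group of array probes for one transcript) counted when the platform annotation gave it exactly 1 gene symbol and that symbol was on the list. On this rule 37 of the 38 genes had at least 1 probe set, with 80 probe sets among the 45037 of the array, and Ccnb1 had none. The RNA was that of female mice on a C57BL/6J background, taken from their mammary fat pads 4 and 9, and each mouse had 1 Affymetrix array. The groups were 3 mice lacking Pxmp2 (Pxmp2-/-), which forms a channel in the membrane of peroxisomes, and 3 wild-type mice (WT), and the study asked whether this channel is needed for growth of the mammary epithelium. All 6 had their ovaries removed at 21 days of age and received estradiol at 31 days, and the tissue was taken 8 h later. No uninjected mice were analysed here, so the values describe genotypes after estradiol and not the response to it. The sources used here do not give the construction of the Pxmp2 allele or the cells that lack it.

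Cells enter mitosis when cyclins A and B bind Cdk1 and the Cdc25 phosphatases switch that kinase on. Aurora and Polo-like kinases then build the spindle, kinetochore proteins attach chromosomes to it, and a checkpoint holds back the anaphase-promoting complex (APC/C), a ubiquitin ligase, until all are attached. Most of these genes are transcribed mainly in G2 and M phase, so their transcripts serve as markers of dividing cells. In the pubertal mammary gland, estrogen drives division mainly in the end buds of the growing ducts, while cells of the fat pad's stroma, vessels and immune system can divide too.

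For 24 of the 32 tested mitosis genes (75%), the range within each genotype exceeded the difference between genotypes, as for 59.8% of all tested genes. No mitosis gene passed the test. Of the 32 genes bright enough to be tested, 27 had a higher mean in Pxmp2-/- mice, with a median log2 difference of 0.22 against -0.03 over all 12775 tested genes. One Pxmp2-/- mouse carried much of this: Pxmp2-/- 1 gave the highest value of all 6 mice for 26 of the 32 genes, and WT 1 gave the lowest for 16. The brightest probe set of the phosphatase gene Cdc25c and a dimmer one of the checkpoint gene Bub3 read lower in all 3 Pxmp2-/- mice than in any WT mouse, and neither passed.

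Array medians lay between 98.5 and 105 arbitrary units. Pxmp2, the check of the labels, read 2643, 2465 and 2797 in the WT mice and 308, 262 and 260 in the Pxmp2-/- mice. Intensities were compared as log2(intensity + 16), which understates the change of dim transcripts, and a probe set was tested when its mean log2 level exceeded the 40th percentile, an intensity of about 59.1. This kept 47 of the 80 mitosis probe sets. The brightest probe set stands for a gene unless another is named. Of the 32 tested genes, 24 were over the filter level in every mouse, and none was under it in all 3 mice of either group. Differences are Pxmp2-/- minus WT, tested with limma and adjusted over all 27022 tested probe sets, with standard errors from that fit. An array of whole tissue cannot tell more dividing cells from more of a transcript per cell.

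At an adjusted p under 0.05, limma called 17 probe sets, or 0.0629% of those tested (0.0259% higher and 0.037% lower in Pxmp2-/- mice), and 0 of the 47 mitosis probe sets. Counted by gene, 5 of 12775 passed, or 0.0391% (0.00783% higher and 0.0313% lower), and 0 of the 32 mitosis genes. At an unadjusted p under 0.05, 3 of the 32 genes were higher (Foxm1, Cenpa and Ube2c), where 5.54% of all tested genes were, and 1 was lower (Cdc25c), where 8.62% were. The groups did not overlap for 2 higher genes (Foxm1 and Cdc20) against a background of 7.5% in that direction, and for 1 lower gene (Cdc25c) against 15.1%. Over the 47 probe sets, 6 were higher at that p (12.8%, background 6.12%) and 1 was lower (2.13%, background 10.5%), while 4 had separate groups with Pxmp2-/- higher (8.51%, background 7.73%) and 2 with it lower (4.26%, background 15.1%). The shares with separate groups and Pxmp2-/- higher were near their backgrounds, and all shares in the lower direction were under theirs. Those higher at an unadjusted p under 0.05 in limma were somewhat above theirs, at 9.38% of the genes (3 genes) and 12.8% of the probe sets. The gene count fell to 0 without Pxmp2-/- 1, so it is no result about the mitosis genes. The share with a difference above 0 was also above its background, at 84.4% of the mitosis genes and 41.7% of all tested genes. By probe set it was 83% and 42.7%. The mitosis genes shared the same 6 mice and moved together across them, so the 27 are not separate observations.

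**Figure D1:**
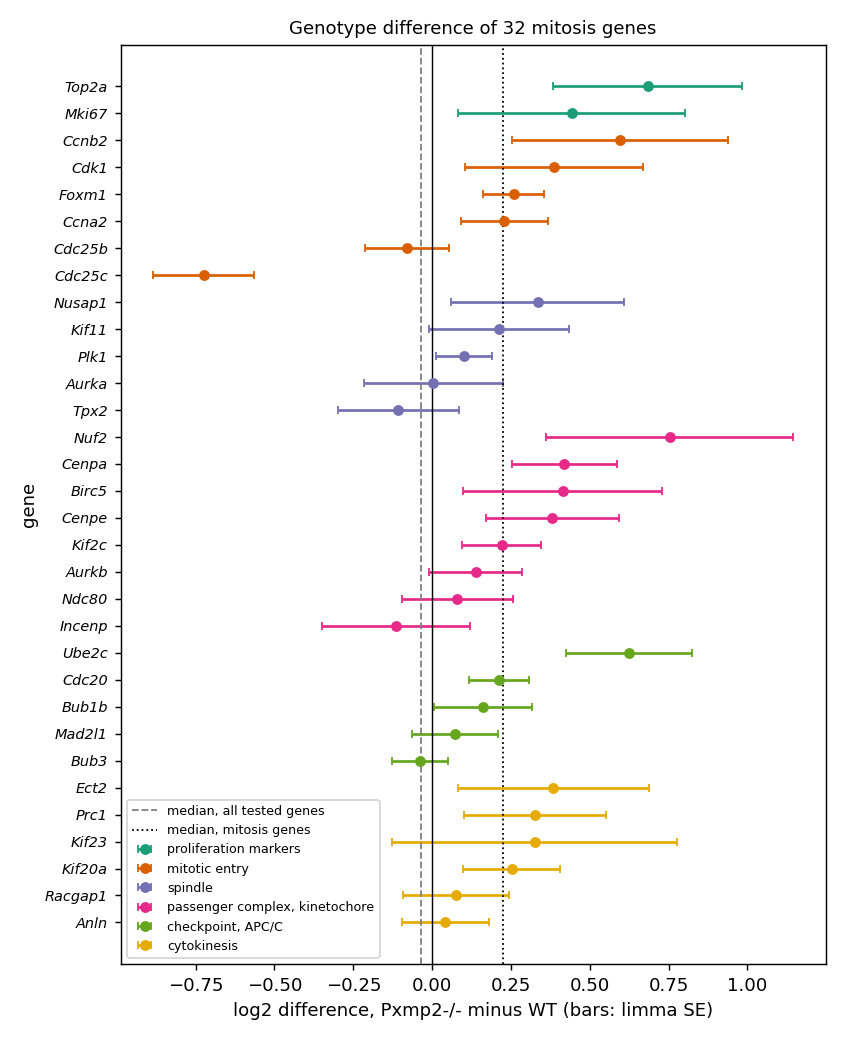
Log2 difference (x axis, Pxmp2-/- minus WT) of the 32 tested mitosis genes (y axis), grouped by role, with limma standard errors as bars and 3 mice per genotype. Most points lie right of 0 with wide bars, Nuf2 is highest at 0.75, and Cdc25c stands apart on the left at -0.72.

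The proliferation markers showed the pattern most plainly. Mki67 encodes Ki-67, a protein that coats mitotic chromosomes and is used to count dividing cells. Its intensity was 158, 354 and 278 in WT 1, 2 and 3, and 547, 218 and 345 in Pxmp2-/- 1, 2 and 3. The groups overlapped, since Pxmp2-/- 2 lay below both WT 2 and WT 3. The means were 263 ± 98.4 and 370 ± 166 (SD, n = 3 each), and the log2 difference was 0.44 ± 0.36 (SE) with a limma adjusted p of 0.552. Top2a, the topoisomerase that untangles sister chromatids, read 158, 316 and 254 in WT and 554, 266 and 386 in Pxmp2-/- mice. WT 1 was again the lowest and Pxmp2-/- 1 the highest, and the difference was 0.68 ± 0.30 with a limma adjusted p of 0.307. Within WT alone, Mki67 varied 2.23-fold and Top2a 2.00-fold between the lowest and the highest mouse. A second tested probe set of Top2a (1442454_at) spanned only 80.7 to 106 over all 6 mice, and differed by 0.15.

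The genes of mitotic entry fell into 3 kinds. Ccnb2, a B-type cyclin, read 52.0, 132 and 87.9 in WT and 203, 84.8 and 148 in Pxmp2-/- mice, and the kinase gene Cdk1 read 291, 460 and 306 against 681, 308 and 450. Both kept the order of the mice seen for Ki-67 within each group, and differed by 0.60 ± 0.34 and 0.39 ± 0.28 (SE). Ccna2, cyclin A2, differed by 0.23 in its brightest probe set and by 0.47 in the other (1417910_at), which ran from 192 in WT 1 to 529 in Pxmp2-/- 1.

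Foxm1, the transcription factor that switches on many G2 and M phase genes, had a small and even difference in its brightest probe set. It read 131, 106 and 124 in WT and 151, 147 and 141 in Pxmp2-/- mice, so all 3 Pxmp2-/- mice lay above all 3 WT mice. The log2 difference was 0.26 ± 0.10 (SE), with an unadjusted p of 0.0306 and a limma adjusted p of 0.262. Its second tested probe set (1417748_x_at) differed by 0.25 with overlapping groups. A dimmer one (1448834_at, not tested) was uneven, at 8.88, 21.8 and 15.9 in WT and 24.6, 8.92 and 19.2 in Pxmp2-/- mice. The dimmest of its 4 probe sets (1437138_at, not tested) read 18.8 and 17.6 in WT 2 and WT 3 and between 1 and 2.31 in the other 4 mice.

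Cdc25c and Cdc25b encode phosphatases that remove the inhibitory phosphates of Cdk1. Cdc25c read 73.1, 93.0 and 102 in WT and 37.3, 61.4 and 45.3 in Pxmp2-/- mice, and the groups did not overlap. Its difference was -0.72 ± 0.16 (SE), the smallest p among the mitosis genes (unadjusted 0.00228), with a limma adjusted p of 0.169. Pxmp2-/- 1, highest for most mitosis genes, was lowest for this one. The other Cdc25c probe set (1456077_x_at), under the filter at 42.5 to 62.4, differed by -0.03. Cdc25b read between 210 and 284 in the 6 mice, with a difference of -0.08. Melk, a kinase gene of dividing cells, was under the filter and ran from 12.1 in WT 1 to 74.9 in Pxmp2-/- 1.

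**Figure D2:**
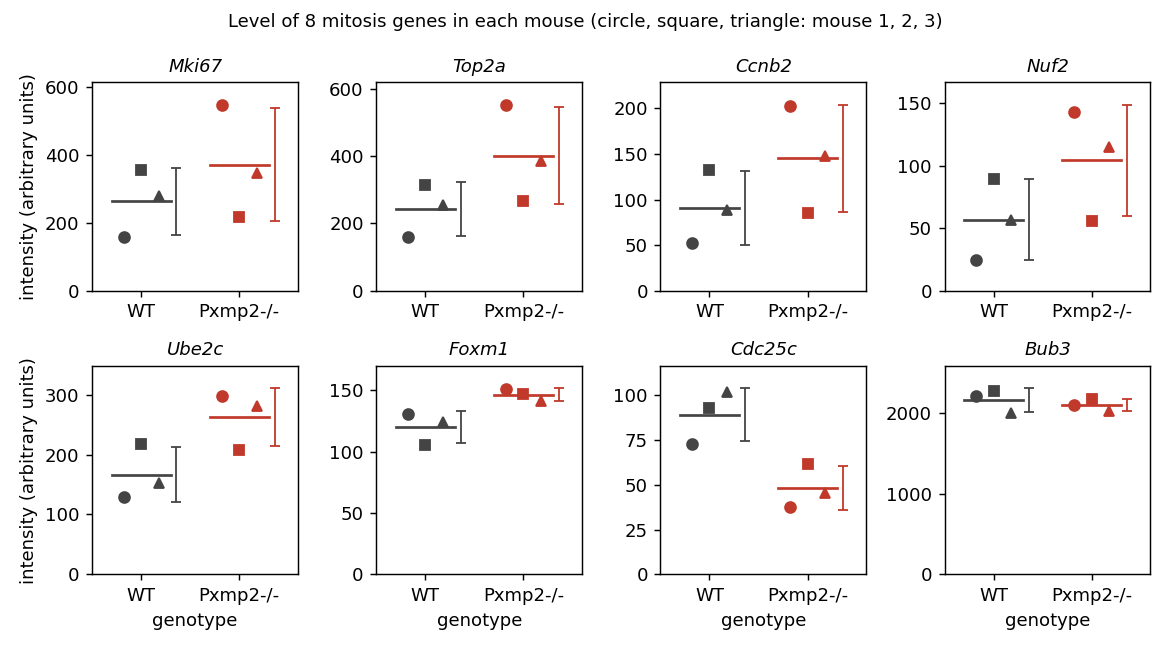
Intensity (y axis, arbitrary units, from 0) of 8 mitosis genes by genotype (x axis), with circle, square and triangle for mouse 1, 2 and 3, a line at the group mean and an SD bar (n = 3). In Mki67, Top2a, Ccnb2 and Nuf2 the circles mark the lowest WT and the highest Pxmp2-/- mouse. Foxm1 and Cdc25c have separate groups, and Bub3 lies between 1995 and 2270 in all mice.

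Spindle genes differed little in the mean. Nusap1, which bundles spindle microtubules, read 82.3, 141 and 127 in WT and 205, 94.3 and 166 in Pxmp2-/- mice. The difference was 0.33 ± 0.27 (SE) with overlapping groups, and the mice kept the order seen for Mki67 within each group. The Polo-like kinase gene Plk1 hardly varied, at 168, 194 and 181 against 196, 201 and 188. Aurka, the spindle pole kinase, was even in the mean (0.00), with 128 in Pxmp2-/- 1 and 63.5 to 88.4 in the other mice. Its sign turned under several settings.

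Tpx2, which activates Aurora A on the spindle, gave different answers by probe set. Its brightest probe set (1447519_x_at) ran from 121 to 194 with no order by genotype, and differed by -0.11. The next one (1428104_at) read 74.5, 118 and 83.1 in WT and 142, 126 and 129 in Pxmp2-/- mice. Its groups were separate, with a difference of 0.48 ± 0.15 (SE), an unadjusted p of 0.0131 and a limma adjusted p of 0.224. A dimmer one (1447518_at) was separate too, at 56.1 to 58.5 against 59.9 to 73.0.

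For Kif11, the motor that pushes spindle poles apart, the brightest probe set overlapped between groups (0.21 ± 0.22, SE). A dimmer one (1452314_at) read 62.6, 56.8 and 53.6 in WT and 91.8, 61.1 and 75.1 in Pxmp2-/- mice, with an unadjusted p of 0.0484 and a limma adjusted p of 0.297. The third (1452315_at), under the filter, was separate at 29.0 to 41.3 against 49.4 to 52.6. The chromosome motor gene Kif4 was under the filter as well, and its values of 18.1, 26.0 and 19.0 in WT lay below the 41.3, 28.9 and 34.0 of Pxmp2-/- mice. Of the 5 probe sets under the filter with separate groups, 4 were higher in Pxmp2-/- mice, those of Kif11 and Kif4 and 1 each of Aurkb (1451246_s_at) and Kif23 (1450827_at). The other, of Incenp (1441314_at), read 29.0, 32.5 and 38.1 in WT and 8.26, 27.1 and 19.8 in Pxmp2-/- mice. These dim values had no test. The share of separate groups over all probe sets under the filter was not computed, so the count is no result about the mitosis genes.

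Among genes of the chromosomal passenger complex and the kinetochore, 7 of 8 tested had a higher mean in Pxmp2-/- mice. Nuf2, a subunit of the Ndc80 complex that grips microtubules, read 24.4, 89.5 and 56.8 in WT and 143, 55.5 and 115 in Pxmp2-/- mice. This was the widest spread between mice among the tested mitosis genes by intensity ratio, 5.86-fold, and the difference of 0.75 ± 0.39 (SE) had a limma adjusted p of 0.367. Its partner Ndc80 did not share that order: it read 46.4 in WT 1 and 66.7 to 82.5 in the other mice.

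Cenpa, the histone variant that marks centromeres, was even in WT at 165, 161 and 176 and uneven in Pxmp2-/- mice at 278, 169 and 253. The difference was 0.42 ± 0.17 (SE), with an unadjusted p of 0.0382 and a limma adjusted p of 0.279. Pxmp2-/- 2 fell within the WT range. Cenpa was the single mitosis gene with a probe set that lies on chromosome 5, the chromosome of Pxmp2 itself.

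Birc5, survivin, read 117, 183 and 157 in WT and 339, 124 and 203 in Pxmp2-/- mice, a difference of 0.41 ± 0.32 (SE). Incenp, the scaffold of the same complex, read 262, 327 and 311 against 405, 193 and 263, with the highest and the lowest of the 6 values both in Pxmp2-/- mice. It differed by -0.11, while its other tested probe set (1423092_at) differed by 0.12 with overlapping groups. The complex's kinase gene Aurkb differed by 0.14, the kinetochore motor gene Cenpe by 0.38 and the microtubule-depolymerising motor gene Kif2c by 0.22. The other 3 tested Kif2c probe sets differed by -0.08, -0.03 and 0.07. Cenpf, a kinetochore protein gene, stayed under the filter with 31.9 to 86.5 in its brightest probe set.

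In the checkpoint and APC/C group, the largest difference was in Ube2c, the enzyme that passes ubiquitin to APC/C targets such as cyclin B. It read 129, 217 and 152 in WT and 298, 207 and 282 in Pxmp2-/- mice, and the groups overlapped only through WT 2 and Pxmp2-/- 2. The difference was 0.62 ± 0.20 (SE), or 1.54-fold, with an unadjusted p of 0.0146 and a limma adjusted p of 0.228. Cdc20, the activator of the APC/C, had narrow groups that did not overlap, at 329, 275 and 310 against 370, 346 and 347. The difference was 0.21 ± 0.09 (SE) with a limma adjusted p of 0.312. A dimmer Cdc20 probe set (1439377_x_at) spread far more, from 122 in Pxmp2-/- 2 to 376 in Pxmp2-/- 1.

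The checkpoint genes themselves differed less. Bub3 read 2215, 2270 and 1995 in WT and 2100, 2175 and 2027 in Pxmp2-/- mice, a difference of -0.04 whose sign turned after quantile normalization (0.0046). A second Bub3 probe set (1448473_at) had separate groups, 333 to 345 in WT and 289 to 311 in Pxmp2-/- mice, with a difference of -0.16 and a limma adjusted p of 0.348. Mad2l1 (0.07), which with Bub3 forms part of the inhibitor of the APC/C, and the checkpoint kinase-like gene Bub1b (0.16) overlapped between groups. Bub1 and Ttk, kinases of the checkpoint, were under the filter: Bub1 ran from 17.4 in WT 1 to 71.3 in Pxmp2-/- 1, and Ttk from 30.9 in Pxmp2-/- 1 to 59.6 in Pxmp2-/- 3.

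All 6 genes of cytokinesis had a mean difference above 0, and none had separate groups in a tested probe set. Kif20a, a motor of the central spindle, read 64.3, 56.3 and 64.5 in WT and 94.1, 56.7 and 82.6 in Pxmp2-/- mice (0.25 ± 0.15, SE). Prc1, which crosslinks the central spindle, read 125, 239 and 222 against 284, 231 and 212. Its second probe set (1423774_a_at) read 40.6, 71.1 and 56.6 against 114, 65.5 and 82.9, with a difference of 0.51 ± 0.21, an unadjusted p of 0.0386 and a limma adjusted p of 0.281. Kif23, a motor of the centralspindlin complex, had the widest log2 range over the 6 mice, 2.02, from 39.4 in WT 1 to 208 in Pxmp2-/- 1. Ect2, which activates the small GTPase of the cleavage furrow, differed by 0.38, and Racgap1, the partner of Kif23, by 0.08. The furrow scaffold gene Anln read 425, 567 and 508 against 595, 471 and 478, a difference of 0.04. The differences of Kif23, Racgap1 and Anln turned below 0 without WT 1, and without Pxmp2-/- 1.

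The shared order of the mice was the main feature of the mitosis genes. Averaged over the 32 genes, the log2 level was 7.25, 7.64 and 7.46 in WT 1, 2 and 3, and 7.97, 7.40 and 7.65 in Pxmp2-/- 1, 2 and 3. The group means were 7.45 ± 0.20 and 7.67 ± 0.29 (SD, n = 3 each), so the difference of 0.22 was about as large as the spread within a group. In WT, mouse 1 was the lowest for 20 of 32 genes (62.5%; 35.3% over all tested genes). In Pxmp2-/-, mouse 1 was the highest for 26 (81.3%; 45.6% over all tested genes) and mouse 2 the lowest for 22 (68.8%; 30.1%). For 24 of the 32 genes (75%) the range within each genotype exceeded the difference between genotypes, as for 59.8% of all tested genes.

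**Figure D3:**
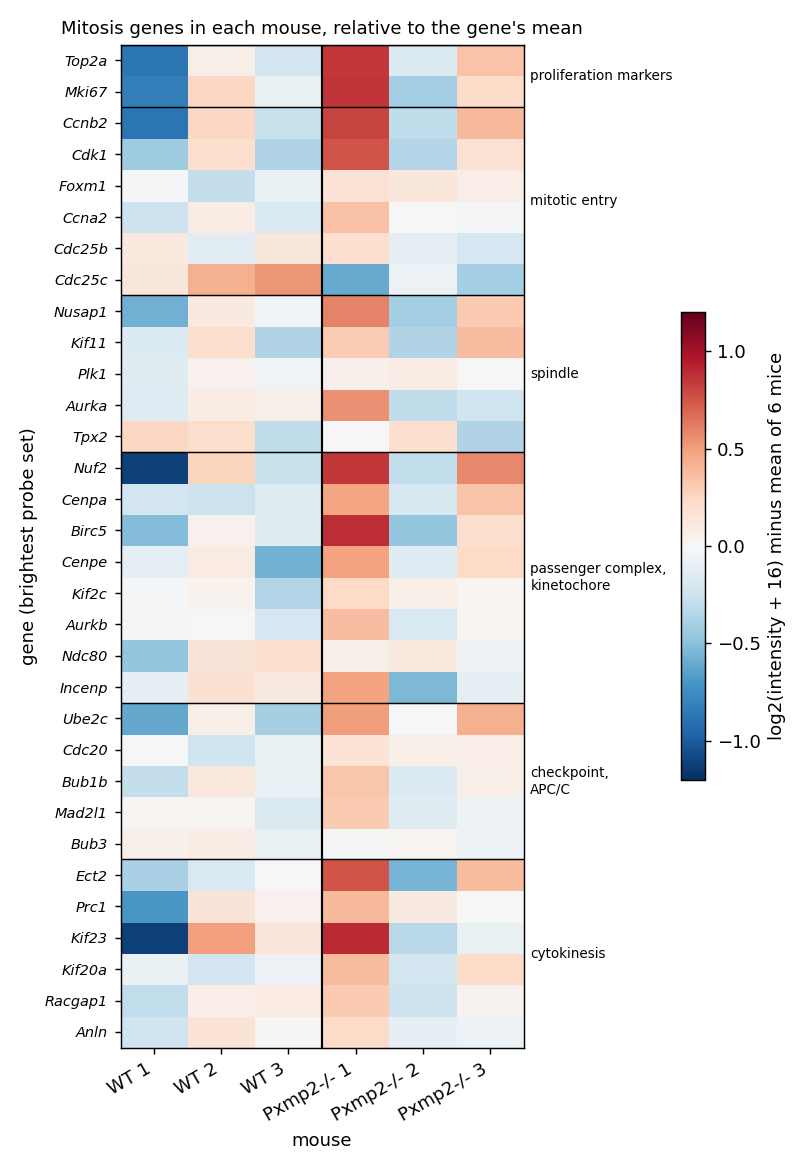
Log2(intensity + 16) of the 32 tested mitosis genes (rows, by role) in each mouse (columns), minus the gene's mean over the 6 mice; red is above and blue below that mean. The column of Pxmp2-/- 1 is red for most genes, with Cdc25c blue, and the column of WT 1 is blue for the most variable genes.

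Leaving out single mice moved the comparison. Without Pxmp2-/- 1, the mean level differed by 0.07 and the median gene by 0.10, 21 of 32 genes were above 0 (40.4% of all tested genes), and 0 genes were higher at an unadjusted p under 0.05 in limma (5.35% of all tested genes). Without WT 1, the mean level differed by 0.12 and 22 genes were above 0. Without Pxmp2-/- 2, the mean level differed by 0.36, 28 genes were above 0, and 12 genes were higher at an unadjusted p under 0.05 (4.24% of all tested genes). No mitosis probe set passed at the adjusted threshold in any fit without 1 mouse.

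The likeness of the genes to one another can be put as the correlation of each with Mki67 over the 6 mice, which share array and RNA. The median r was 0.737 over the 31 other mitosis genes and -0.022 over all tested genes. It exceeded 0.9 for 10 of the 31 (32.3%), and for 0.845% of all tested genes. For the lists described below, the median r was 0.628 over 25 S phase genes, with 16% over 0.9. Over 44 other genes of mitosis it was 0.298, with 11.4% over 0.9. The 10 of the 31 were Bub1b, Ccnb2, Nusap1, Top2a, Birc5, Nuf2, Kif23, Racgap1, Cdk1 and Anln. At the other end lay Cdc20 (0.171), Foxm1 (0.12), Cdc25b (0.0537), Bub3 (-0.286), Tpx2 (-0.368) and Cdc25c (-0.474). Their brightest probe sets, for which r was computed, did not follow Mki67. Dimmer ones of Cdc20 (1439377_x_at) and Foxm1 (1448834_at, under the filter) did keep the order of the mice seen for Mki67 within each group. The brightest probe sets of Foxm1, Cdc20 and Cdc25c had separate groups. Those of Mki67 overlapped, so a gene with separate groups could not share its full order of the mice.

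Genes that peak in G2 and M phase often carry 2 kinds of promoter element, the cell cycle homology region (CHR), through which the DREAM complex keeps them off in resting cells, and CCAAT boxes bound by NF-Y. The RefSeq promoter table (build GRCm38.p6, 250 bases before to 50 after the start) held 34 promoters of 31 of the 38 genes. The CHR letters TTTGAA or TTCGAA, on either strand, were found in 27 of the 34 (79.4%) and in 19.2% of all 32851 promoters. CCAAT on either strand was found in 26 (76.5%) and in 37.4% of all, and both in 24 (70.6%) and 7.52%. TTCGAA reads the same on both strands, and a match of one motif can share an end letter with a match of the other. Among the 11 genes made up of Mki67 and the 10 most like it, 8 promoters held the CHR letters (72.7%).
The 150 bases before the start are shown for 3 genes that varied together (Mki67, Top2a and Cdk1), for 1 that varied with them and has neither motif in its window (Birc5), and for 1 that was even across mice (Bub3). Capitals mark CHR and CCAAT letters on either strand, and each run reads along the gene's strand, 5′ to 3′.
Mki67: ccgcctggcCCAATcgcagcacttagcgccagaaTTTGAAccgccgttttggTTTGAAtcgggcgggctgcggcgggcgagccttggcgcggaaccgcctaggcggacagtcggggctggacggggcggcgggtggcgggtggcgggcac
Top2a: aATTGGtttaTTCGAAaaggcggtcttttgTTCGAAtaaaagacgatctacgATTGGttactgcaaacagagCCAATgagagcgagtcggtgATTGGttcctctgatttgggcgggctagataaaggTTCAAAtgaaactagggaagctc
Cdk1: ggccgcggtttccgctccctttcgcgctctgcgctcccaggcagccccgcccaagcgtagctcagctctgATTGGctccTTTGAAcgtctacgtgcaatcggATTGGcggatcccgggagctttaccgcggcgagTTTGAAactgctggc
Birc5: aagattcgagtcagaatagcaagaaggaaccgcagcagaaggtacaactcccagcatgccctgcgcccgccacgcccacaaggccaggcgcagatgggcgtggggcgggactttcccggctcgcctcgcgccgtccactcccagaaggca
Bub3: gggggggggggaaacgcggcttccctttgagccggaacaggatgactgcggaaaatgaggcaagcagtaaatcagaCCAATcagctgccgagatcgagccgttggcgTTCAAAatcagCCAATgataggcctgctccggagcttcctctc
These lie at chr7:135716380-135716529 (minus strand), chr11:99024190-99024339 (minus), chr10:69352913-69353062 (minus), chr11:117849087-117849236 (plus) and chr7:131560220-131560369 (plus). Over the whole 300-base window, Mki67 held 2 CHR and 3 CCAAT matches, Top2a 4 and 6, Cdk1 2 and 3, Birc5 0 and 0, and Bub3 1 and 2. The letters were therefore present both in genes that varied between mice and in one that was even.

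Other genes of mitosis leaned the same way with smaller spread. Of 63 listed, 44 were tested, and 32 had a difference above 0, with a median of 0.17. None passed the adjusted threshold in limma, 10 were higher and 1 lower at an unadjusted p under 0.05 (5.54% and 8.62% over all tested genes). The groups were separate for 11 with Pxmp2-/- higher and for 2 with it lower, Cks1b and Mad2l1bp (7.5% and 15.1% over all tested genes). The smallest p in the list belonged to the spindle protein gene Ckap2, at 108, 105 and 79.8 in WT and 167, 118 and 178 in Pxmp2-/- mice (limma adjusted p = 0.212). Zwint, a kinetochore protein gene, read 1897, 2011 and 1781 against 2088, 2468 and 2682, a difference of 0.34. Its 6 tested probe sets did not share a sign, and 1 of them had separate groups with Pxmp2-/- lower (-0.34). Psrc1 (0.35) and Cenpm (0.40) followed, with separate groups in both. Over the whole list Pxmp2-/- 1 was the highest mouse for 20 of 44 genes.

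Most genes of the APC/C had a difference below 0, as did most of all tested genes, while those of condensin and cohesin were mixed. Of the 15 genes of the APC/C and its regulators, 12 had a difference below 0 (7449 of 12775 over all tested genes). Their median was -0.09, with a range of -0.23 to 0.09. Among them Anapc4 differed by -0.23 and Anapc7 by -0.16, and both lie on chromosome 5, as do Anapc5 (0.09) and Pxmp2. In limma, 0 of the 15 had an unadjusted p under 0.05 in their brightest probe set (a dimmer one of Anapc4 did, at 0.0305). Of the 15, 4 had separate groups with Pxmp2-/- lower and 0 with it higher (15.1% and 7.5% over all tested genes). Condensin and cohesin genes had a median of 0.02 over 18 tested, with 11 above 0 and 7 below, and that median turned to -0.09 without Pxmp2-/- 1. The cohesin regulators Pds5a (-0.33) and Nipbl (-0.31) were lower with separate groups, and neither passed (limma adjusted p = 0.215 and 0.285). They were the only 2 of the 18 with separate groups, where 15.1% of all tested genes were separate and lower. Pds5a lies on chromosome 5 too, and whether that position bears on these levels was not tested. The condensin gene Ncapg, a marker of dividing cells, read 30.8, 68.0 and 83.1 against 142, 35.9 and 67.5, in an order close to that of Mki67.

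The regulators that hold these promoters off or on had no common direction. E2F, DREAM and NF-Y genes had a median of -0.01 over 20 tested, with 10 above and 10 below 0, and that median was 0.02 after quantile normalization, -0.14 without Pxmp2-/- 1 and -0.06 without WT 1. The smallest p in the list belonged to the NF-Y subunit gene Nfyc (-0.23), E2f4 (0.18) and Nfya (0.17), with separate groups in each and no adjusted p under 0.05 in limma. Of the 20, 2 had separate groups with Pxmp2-/- higher and 1 with it lower (7.5% and 15.1% over all tested genes). Mybl2, which joins the activating form of the complex, differed by 0.22 with overlapping groups.

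S phase genes shared part of the order of the mice but had less of the lean towards Pxmp2-/-. Over all tested genes, 41.7% were above 0, with a median of -0.03. Of 25 S phase genes tested, 14 were above 0 and 11 below, with a median of 0.05. That median turned to -0.07 without Pxmp2-/- 1 and to -0.04 without WT 1. The mean log2 level of the S phase genes was 8.02, 8.36 and 8.18 in WT and 8.43, 8.03 and 8.11 in Pxmp2-/- mice. Pxmp2-/- 1 and WT 2 were thus highest. The ribonucleotide reductase gene Rrm2 read 176, 347 and 293 against 559, 224 and 381. Pole, the catalytic subunit of a replicative polymerase, read 79.1, 102 and 102 against 48.1, 45.8 and 37.3. The difference was -0.88 with separate groups and a limma adjusted p of 0.0992. Pole lies on chromosome 5, as Pxmp2 does, and whether that position bears on its level was not tested. Prim1, a primase subunit gene, differed by 0.30, also with separate groups. Of the 25, 1 had separate groups with Pxmp2-/- higher and 2 with it lower (7.5% and 15.1% over all tested genes).

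**Figure D4:**
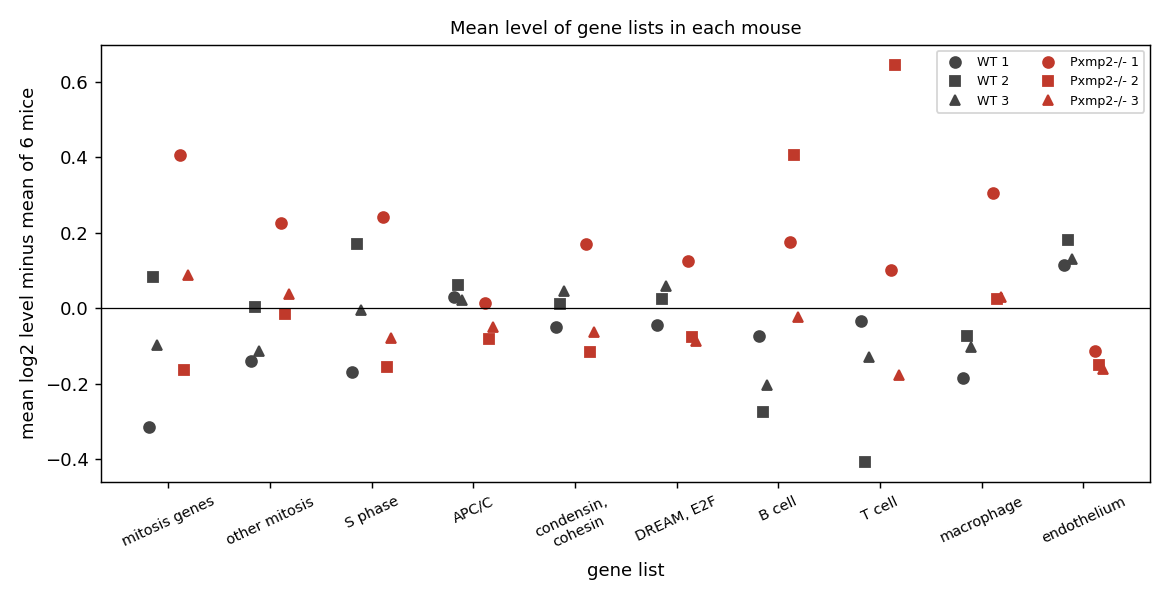
Mean log2 level of 10 gene lists in each mouse (y axis, minus the mean of the 6 mice), with grey for WT, red for Pxmp2-/-, and circle, square and triangle for mouse 1, 2 and 3. For the mitosis genes the red circle is highest (0.41) and the grey circle lowest (-0.31). The macrophage list has the same extremes, while the lymphocyte lists are highest in Pxmp2-/- 2.

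Markers of the cells a fat pad can hold were read beside these values. Macrophage markers (8 of 9 listed on the array, all tested) had mean log2 levels of 8.99, 9.10 and 9.07 in WT and 9.48, 9.20 and 9.20 in Pxmp2-/- mice. Their summed intensity was 6609 to 6885 in WT and 7741 to 9490 in Pxmp2-/- mice, with WT 1 lowest and Pxmp2-/- 1 highest, as for the mitosis genes. Their part in the mitosis result was not tested. B lymphocyte markers (8 of 10 on the array) summed to 982 to 1161 in WT and 1247 to 1733 in Pxmp2-/- mice, and T lymphocyte markers (9 of 11) to 1015 to 1331 and 1177 to 1775. Both sums were highest in Pxmp2-/- 2, in which the mitosis genes were low. The T cell receptor gene Cd3e was at or near the floor of 1 in 5 mice (11.7 in Pxmp2-/- 1).

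Epithelial markers were mostly dim. Of 8 luminal markers on the array 2 were tested, Cdh1 and Krt19, and the 8 summed to 302 to 412 in WT and 406 to 476 in Pxmp2-/- mice. The tested pair went opposite ways: Cdh1 differed by 1.01 with overlapping groups, and Krt19 by -0.39 with separate ones (limma adjusted p = 0.252 and 0.272). The mean log2 level of the pair was highest in Pxmp2-/- 1, as for the mitosis genes (0.52 above the mean of the 6 mice), and its part in the mitosis result was not tested. Basal markers (5 of 5 on the array, 2 tested) summed to 957 to 1420 and 1186 to 1632, and Krt5, which defines them, read between 1.91 and 19.7. Endothelial markers (10 of 10, all tested) summed to 22192 to 23507 in WT and 18000 to 19985 in Pxmp2-/- mice, against the lean of the mitosis genes. Fibroblast markers (7 of 7, all tested) also ran against it, with all 7 differences below 0. Their sums were 51844 to 61240 in WT and 43480 to 51871 in Pxmp2-/- mice. Pdgfra, which defines fibroblasts, differed by -1.25 (limma adjusted p = 0.158), and the other fibroblast markers by -0.07 to -0.45. Pdgfra and the endothelial marker Kdr lie on chromosome 5, as Pxmp2 does. Whether that position bears on their levels was not tested. Mast cell markers (5 of 5, 4 tested) summed to 477 to 685 in WT and 654 to 707 in Pxmp2-/- mice. Skeletal muscle markers (5 of 5, 2 tested) summed to 673 to 844 and 719 to 870. Both sums were highest in Pxmp2-/- 1, as for the mitosis genes. Adipocyte, pericyte and smooth muscle, and germinal centre B lymphocyte sums overlapped between groups. Erythroid sums were lower in Pxmp2-/- mice (1048 to 1063 against 786 to 1008). In which cells of the pad the mitotic transcripts lay was not tested.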

How the data were processed

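The authors deposited a table of array intensities on a linear scale, 1 column per mouse, with biotin-labelled RNA and a lipid tissue extraction kit per the labels' protocols. Probe-level summary and scaling are not given in the sources used here. Intensities were used as log2(intensity + 16), and probe sets with a mean above the 40th percentile were tested. The test between genotypes was limma's (version 3.58.1, under R 4.3.3), two-sided, with Benjamini-Hochberg adjustment at 0.05; it was tested on simulated data. Precision is limited by there being only 3 arrays for each genotype. The p-values set each difference against the spread between these mice, which limma moderates over all tested probe sets. Symbols came from the platform annotation, and all 37 genes were found in RefSeq (GRCm38.p6) under the same symbol. Every mitosis gene is named. Values in every mouse are given for the 2 smallest p and the brightest gene of each role, the proliferation markers, and those with an unadjusted p under 0.05 or separate groups, with some others added after their values were seen. Up to 4 genes per further list follow the smallest p; Ncapg, Mybl2, Rrm2 and marker genes were added after their values were seen. Genes, lists and tests were chosen with earlier results of these data known. Alternatives are given in the closing section. Figures used matplotlib 3.10.9.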

Additional observations from a re-analysis of the deposited data

How the results depend on the processing

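None of the mitosis probe sets passed under any alternative run, with limma at an adjusted p under 0.05. Over all probe sets, 17 passed, and 1 did with no level filter, 34 with a mean-variance trend and 26 with array weights. Leaving out single arrays gave 1 to 33. Arrays with the same number did not deviate together (r of 0.0222, 0.0443 and -0.119), so the numbers were not taken to pair mice; the replicate block gave 1 probe set, Pxmp2-/- against WT, and 0 mitosis probe sets. With the 60th percentile filter, which leaves 15 mitosis genes, 12 were above 0. The median difference of the mitosis genes stayed above 0 throughout, from 0.10 to 0.28. Of 37 mitosis probe sets named, 26 kept their sign under every alternative run. Aurka turned to -0.0144 after quantile normalization, -0.00596 after median centring, -0.00574 with a pseudocount of 1 and -0.13 with array weights. Bub3 turned to 0.0046 after quantile normalization, and Racgap1 to -0.0031 and Anln to -0.0048 with array weights. Leaving out single arrays gave ranges that cross 0 for Aurka (-0.27 to 0.16), Cdc25b (-0.20 to 0.0036), Tpx2 (-0.29 to 0.046), Aurkb (-0.0125 to 0.26), Incenp (-0.38 to 0.12), Ndc80 (-0.13 to 0.20), Mad2l1 (-0.0676 to 0.16), Kif23 (-0.153 to 0.65), Racgap1 (-0.0632 to 0.22) and Anln (-0.0669 to 0.14), and the cause was not tested. After quantile normalization 50.8% of all tested genes were above 0. The 3 arrays per genotype limit every comparison, and 33 of the 80 mitosis probe sets were too dim to test.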
